A study of Homo sapiens with 3 samples.

Results

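REST, its antagonist SRRM4 and 8 regulators of neural or epithelial splicing are described here in C4-2, a human prostate adenocarcinoma line derived from LNCaP. The 10 genes, REST, SRRM4, PTBP1, PTBP2, ESRP1, ESRP2, RBFOX2, NOVA1, ELAVL3 and CELF3, were taken by symbol from the 58302 genes of the count files, and all 10 were found. The study set adenocarcinoma cells against neuroendocrine-like cells and asked what loss of neuropilin-2 does to the second kind; those samples were not analysed here. The 3 libraries used were replicates of C4-2 cells labelled wild type, with no treatment named, so 1 cell line and 1 condition were measured. Whether the replicates came from separate cultures was not given, so the spread between them may be technical.

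REST is a zinc finger repressor that binds RE1 elements and keeps neuronal genes silent outside the nervous system. SRRM4 is a neural splicing factor that promotes short neural exons, among them one in the REST transcript whose inclusion yields a truncated REST with little repressor activity. PTBP1 holds neural exons out of transcripts in non-neural cells and gives way to PTBP2 in developing neurons, while ESRP1 and ESRP2 enforce the epithelial forms of genes such as FGFR2 and CD44. In prostate cancer, gain of SRRM4 and loss of REST activity are known from tumours that take on neuroendocrine features.

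The libraries held 47513470 to 51200272 reads assigned to genes. Levels are in TPM, reads per exon base scaled to a fixed sum in each library, and are given as the mean ± SD of the 3 libraries. Detection required 10 or more reads in each of the 3 libraries. Among genes with 1 to 20 reads, 75.1% to 81.6% of counts were even, against 50.8% to 52.0% among genes above 100 reads; counting both mates of a fragment gives such an excess of even values. A count of 0 was therefore read as allowing up to 3 fragments, or 6 reads, which equals 0.117 to 0.126 CPM, a count scaled by library size. Such limits and the intervals below take in counting error alone. Prostate luminal markers were detected, including KRT18 at 324 ± 12.7 TPM, and the basal markers TP63 and KRT5 had 0 reads. Of 5 neuroendocrine markers 3 were detected, summing with the others to between 4.77 and 5.94 TPM per library. Markers of fibroblasts summed to at most 1.33 TPM and those of blood and endothelium to at most 0.0155 and 0.0860 TPM. Of the 3 fibroblast markers PDGFRB alone was detected, at 1.17 ± 0.133 TPM.

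The 10 genes ran from 258 TPM for PTBP1 to 0.0486 TPM for SRRM4. Epithelial and broadly expressed regulators were abundant, and SRRM4 and ELAVL3 were barely above 0. In all, 8 of the 10 were detected, against 71.8% of 19708 protein-coding genes, and 7 of the 10 reached 1 TPM, against 62.7% of protein-coding genes. Their median was 17.4 TPM, and that of all protein-coding genes 5.43 TPM. In order of mean level they were PTBP1, ESRP2, ESRP1, REST, RBFOX2, NOVA1, PTBP2, CELF3, ELAVL3 and SRRM4. Apart from ELAVL3 and SRRM4, whose values overlapped, each gene was above the next in every library, with no overlap of ranges, though REST and RBFOX2 changed places when the longest transcript served as length. In bulk samples such as these, fewer cells with a transcript and less of it per cell cannot be told apart.

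**Figure D1:**
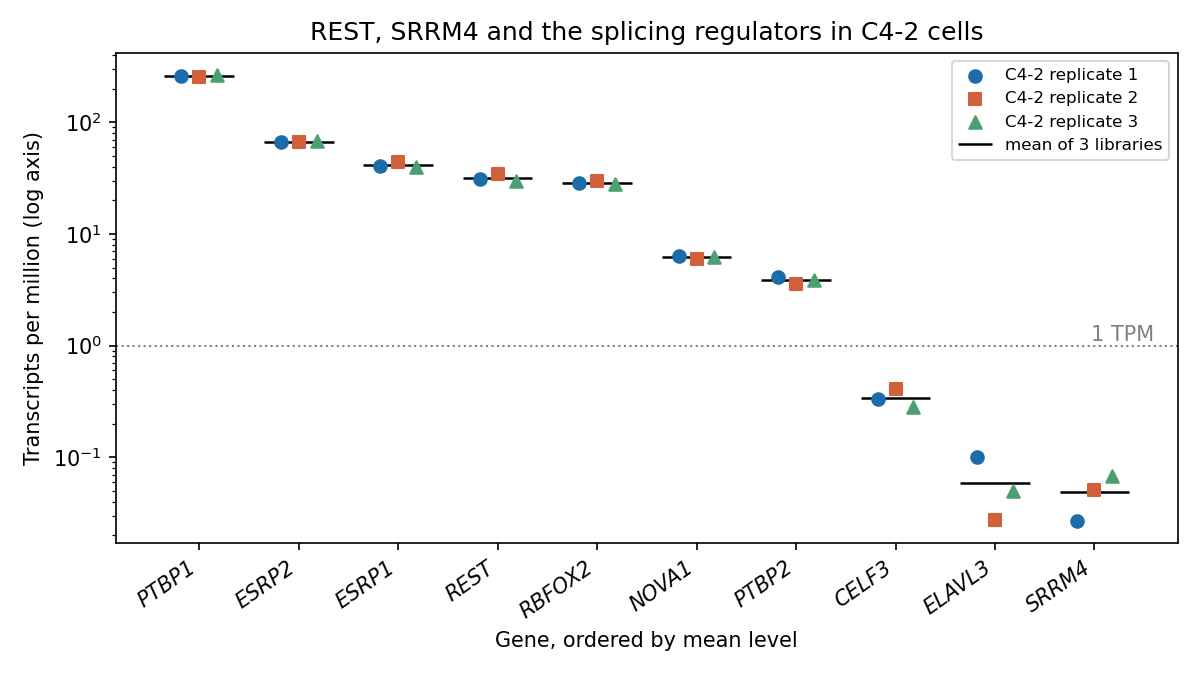
Level in TPM on a log axis of the 10 genes, ordered by mean, with 1 point per C4-2 library and a bar at the mean of the 3. The 3 points of each gene lie close together down to PTBP2 at 3.85 TPM, and spread apart at CELF3, ELAVL3 and SRRM4, all under 1 TPM.

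REST transcripts were readily detected in C4-2 cells and those of SRRM4 were close to absent. REST had 31.2, 34.1 and 29.9 TPM in replicates 1, 2 and 3, a mean of 31.8 ± 2.17 TPM, which exceeded 77.4% of protein-coding genes. SRRM4 had 4, 7 and 10 reads, or 0.0269, 0.0514 and 0.0677 TPM, and did not reach the detection limit. Replicate 1 gave the lowest SRRM4 count and replicate 3 the highest, and REST lay far above SRRM4 in all 3. Over the 3 libraries SRRM4 averaged 0.0486 ± 0.0205 TPM, with a 95% exact Poisson interval from 0.0238 to 0.0882 TPM when 2 reads are taken as 1 fragment. The ratio of the mean levels of REST and SRRM4 was 653, with a counting interval from 360 to 1333. On the scale of log2(TPM + 0.1) the difference of REST minus SRRM4 was 7.75 ± 0.240, positive in all 3 libraries. An exact two-sided permutation test that flips the signs of the 3 library differences gave p = 0.25, the smallest value open to it, and was used for each difference below.

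REST (ENSG00000084093) maps to chromosome 4 (56907876 to 56966678, plus strand; coordinates are of GRCh38), and 0.288% of its 7983 exon bases are shared with NOA1, a gene on the opposite strand. SRRM4 (ENSG00000139767) lies on chromosome 12 (118981495 to 119163051, plus strand) with 8851 exon bases. The counts cover whole genes, so the truncated form of REST cannot be separated from the full transcript. Of the other SRRM genes, SRRM3, a relative of SRRM4 that also promotes short neural exons, had 2.43, 3.19 and 2.54 TPM. SRRM3 exceeded SRRM4 by 4.24 ± 0.242 log2 units (same sign in all 3, exact p = 0.25). The size of this difference depends on the pseudocount, being 1.82 with 1 and 5.60 with 0.01, and the plain TPM ratio was 37.5 to 90.1 by library. The splicing coactivators SRRM2 and SRRM1, which act in all cell types, lay at 200 ± 8.72 and 55.7 ± 1.40 TPM.

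PTBP1 was the highest of the 10 genes. It had 259, 253 and 263 TPM, a mean of 258 ± 5.33 TPM, above 97.9% of protein-coding genes. PTBP2, its neural counterpart, had 4.12, 3.58 and 3.84 TPM, a mean of 3.85 ± 0.269 TPM, above 47.1% of them. Replicate 2 was lowest for both genes, whose values did not overlap. PTBP1 exceeded PTBP2 by 6.04 ± 0.0830 log2 units, or 62.9 to 70.5 times by library (same sign in all 3, exact p = 0.25). The third paralog, PTBP3, lay between them at 36.7 ± 3.06 TPM. PTBP1 thus made up 86.4 ± 1.09% of the summed TPM of the family, PTBP3 12.3 ± 1.12% and PTBP2 1.29 ± 0.0817%. PTBP1 (ENSG00000011304) maps to chromosome 19 (797075 to 812327, plus strand) and shares 0.901% of its exon bases with the microRNA gene MIR4745. PTBP2 (ENSG00000117569) lies on chromosome 1 (96721665 to 96823738, plus strand).

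Both epithelial splicing regulators were abundant, ESRP2 more than ESRP1. ESRP2 had 66.2, 66.0 and 67.5 TPM, a mean of 66.6 ± 0.821 TPM, and ESRP1 had 40.9, 43.8 and 39.4 TPM, a mean of 41.4 ± 2.23 TPM. The values of the 2 genes did not overlap. ESRP1 minus ESRP2 was −0.69 ± 0.0926 log2 units (negative in all 3, exact p = 0.25). RBM47, an RNA-binding protein that also acts on epithelial splicing, followed at 36.3 ± 1.40 TPM, so the 3 genes were of like order. ESRP2 (ENSG00000103067) maps to chromosome 16 (68229111 to 68238102, minus strand), and 4.01% of its exon bases are shared with NFATC3, MIR6773 and an unnamed gene. ESRP1 (ENSG00000104413) lies on chromosome 8 (94641074 to 94707466, plus strand) and shares none.

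RBFOX2, which acts in epithelial, mesenchymal and neural cells and favours mesenchymal exons in many settings, was the only member of its family above 1 TPM. It had 28.5, 29.5 and 27.9 TPM, a mean of 28.6 ± 0.846 TPM. RBFOX3, known as the neuronal nuclear antigen NeuN, was at 0.303 ± 0.0793 TPM, and the neural and muscle gene RBFOX1 had 0 reads in every library. Set against the limit of 6 reads per library, RBFOX2 was at least 767-fold higher than RBFOX1 in each library. ESRP1 exceeded RBFOX2 by 0.53 ± 0.0348 log2 units, or 1.41 to 1.48 times by library (same sign in all 3, exact p = 0.25). Without division by exon length the difference turned to −0.51; ESRP1 has 4875 exon bases and RBFOX2 10014. REST and RBFOX2 were neighbours in the order, with 31.8 and 28.6 TPM. They changed places, at 27.7 TPM for REST and 32.0 TPM for RBFOX2, when the longest annotated transcript was used as length. RBFOX2 (ENSG00000100320) maps to chromosome 22 (35738736 to 36028425, minus strand).

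NOVA1 and CELF3 were the neural members, beside PTBP2, that passed the detection limit. NOVA1, a regulator of synaptic exons first known as an antigen in a paraneoplastic disorder, had 6.34, 6.01 and 6.19 TPM. Its mean of 6.18 ± 0.164 TPM exceeded 51.4% of protein-coding genes, in the middle of the range. Its paralog NOVA2 was at 0.536 ± 0.112 TPM, 3.32 ± 0.287 log2 units lower than NOVA1 (same sign in all 3, exact p = 0.25). NOVA1 (ENSG00000139910) maps to chromosome 14 (26443093 to 26597754, minus strand).

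CELF3, a brain member of the CELF family of splicing and translation regulators, had 25, 28 and 21 reads, or 0.335, 0.410 and 0.283 TPM. Its mean was 0.343 ± 0.0634 TPM, above 29.9% of protein-coding genes. The widely expressed CELF1 had 92.7 ± 3.85 TPM and exceeded CELF3 by 7.72 ± 0.147 log2 units (same sign in all 3, exact p = 0.25). CELF2, CELF4 and CELF5 were detected at 0.667 ± 0.0725, 0.421 ± 0.256 and 0.119 ± 0.0170 TPM, so CELF1 made up 98.4 ± 0.289% of the family's summed TPM. CELF6 had 0 reads, but 93.2% of its exon bases are shared with other genes and reads there are dropped in the counting. CELF3 (ENSG00000159409) maps to chromosome 1 (151702404 to 151716814, minus strand) and shares no exon base.

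ELAVL3, a neuronal member of the Hu family that binds AU-rich sequences and regulates splicing and stability, was at the limit of the measurement. It had 8, 2 and 4 reads, or 0.157, 0.0416 and 0.0808 CPM. The mean was 0.0592 ± 0.0372 TPM with a 95% exact Poisson interval from 0.0238 to 0.122 TPM, 2 reads being taken as 1 fragment. Replicate 1 held the highest count, and without it the mean was 0.0388 TPM. The interval overlapped that of SRRM4, and the order of the pair turned round when replicate 1 was left out. ELAVL1, the ubiquitous member known as HuR, lay at 90.2 ± 3.58 TPM, and the ratio of its mean to that of ELAVL3 was 1524 with a counting interval from 739 to 3789. ELAVL1 minus ELAVL3 was 9.17 ± 0.385 log2 units (same sign in all 3, exact p = 0.25). Of the other neuronal members, ELAVL2 was at 1.35 ± 0.112 TPM and ELAVL4 had 0 reads. ELAVL3 (ENSG00000196361) maps to chromosome 19 (11451326 to 11481046, minus strand), and 5.38% of its exon bases are shared with an unnamed gene.

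**Figure D2:**
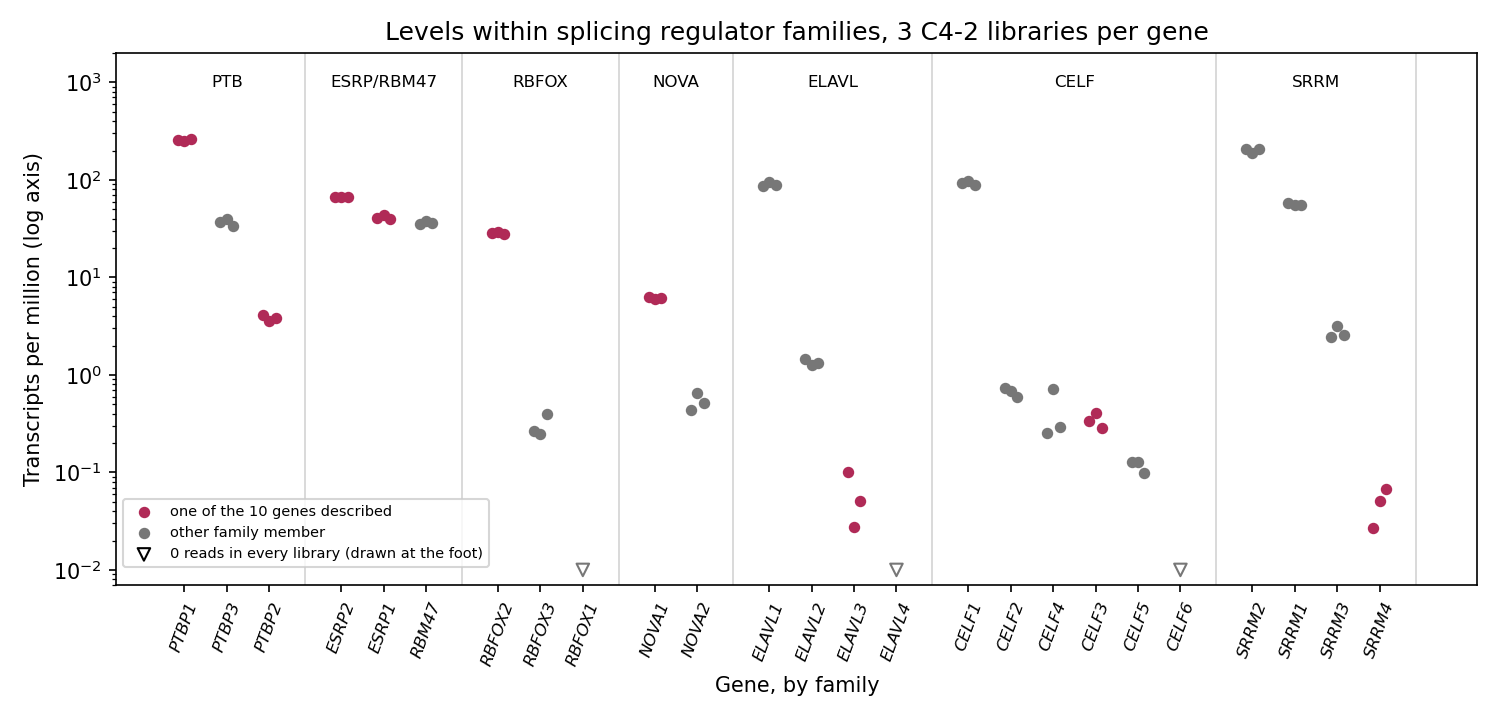
Level in TPM on a log axis of every gene of 7 splicing regulator families, with 3 points per gene, 1 for each C4-2 library. In the PTB, RBFOX, ELAVL, CELF and SRRM families the broadly expressed genes named in the text lie at 28.6 TPM or more. The neural genes that the text names from these families lie below 5 TPM, as does CELF2 at 0.667 TPM. In the NOVA family, NOVA1 lies at 6.18 TPM and NOVA2 at 0.536 TPM. Open triangles at the foot mark genes with 0 reads.

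ESRP1 and ESRP2 together summed to 108 ± 1.59 TPM, and SRRM4, PTBP2, NOVA1, ELAVL3 and CELF3 together to 10.5 ± 0.421 TPM. NOVA1 and PTBP2 made up nearly all of the second sum. The mean log2(TPM + 0.1) of the 2 epithelial genes exceeded that of the 5 neural genes by 6.11 ± 0.0680 (same sign in all 3, exact p = 0.25). The 10 differences between genes tested here all had an adjusted p of 0.25 after Benjamini-Hochberg correction, and none could have gone lower.

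A further list held 10 other splicing regulators, widely expressed ones among them. Of these 9 were detected and 6 reached 1 TPM, against 71.8% and 62.7% of all protein-coding genes. The list median was 7.24 TPM, and that of all protein-coding genes 5.43 TPM. KHDRBS1, the widely expressed SAM68, was highest at 202 ± 9.15 TPM, then MBNL1, an antagonist of fetal splicing patterns, at 42.3 ± 1.33 TPM and RBM38 at 37.5 ± 2.59 TPM. MBNL1 shares 15.6% and RBM38 12.6% of exon bases with other genes. KHDRBS2, a relative of KHDRBS1 found in the brain, had 0 reads.

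REST silences genes through corepressors, which it recruits at both ends of the protein. The 16 corepressor and turnover genes on the list were all detected and all reached 1 TPM, against 71.8% and 62.7% of all protein-coding genes. Their median was 40.0 TPM, above the 5.43 TPM of all protein-coding genes. HMG20B, a subunit of the CoREST complex, was highest at 200 ± 3.55 TPM, followed by the histone deacetylase gene HDAC1 at 166 ± 9.60 TPM and CTDSP1, a small phosphatase that acts with REST, at 78.3 ± 1.25 TPM. HMG20B and CTDSP1 share 9.57% and 9.90% of exon bases with other genes. The scaffold genes RCOR1 and SIN3A lay at 44.4 ± 2.94 and 40.0 ± 0.142 TPM, while RCOR2, a relative of RCOR1, was lowest of the 16 at 3.18 ± 0.497 TPM. BTRC, whose product marks REST for degradation, was at 7.82 ± 0.434 TPM, and USP7, which removes ubiquitin from REST, at 61.2 ± 4.70 TPM.

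Neuronal genes widely described as REST targets were mostly low, with exceptions. Of 17 such genes 10 (58.8%) were detected and 6 reached 1 TPM, against 71.8% and 62.7% of all protein-coding genes. The list median of 0.401 TPM was below the 5.43 TPM of all protein-coding genes. SYT4, a synaptotagmin gene, was highest with 78.9, 73.8 and 63.5 TPM, above REST itself in each library. The neuropeptide precursor gene VGF had 30.0, 25.5 and 28.3 TPM, and GRIN1, which encodes the obligatory subunit of NMDA receptors, 13.1, 12.3 and 13.4 TPM. None of the 3 exceptions overlapped the other 14 genes, which lay at 2.53 TPM or less on average. STMN2, CHRM4, SCG2, SNAP25, SRRM4, BDNF and SCN2A were not detected, with at most 18 reads in any library.

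**Figure D3:**
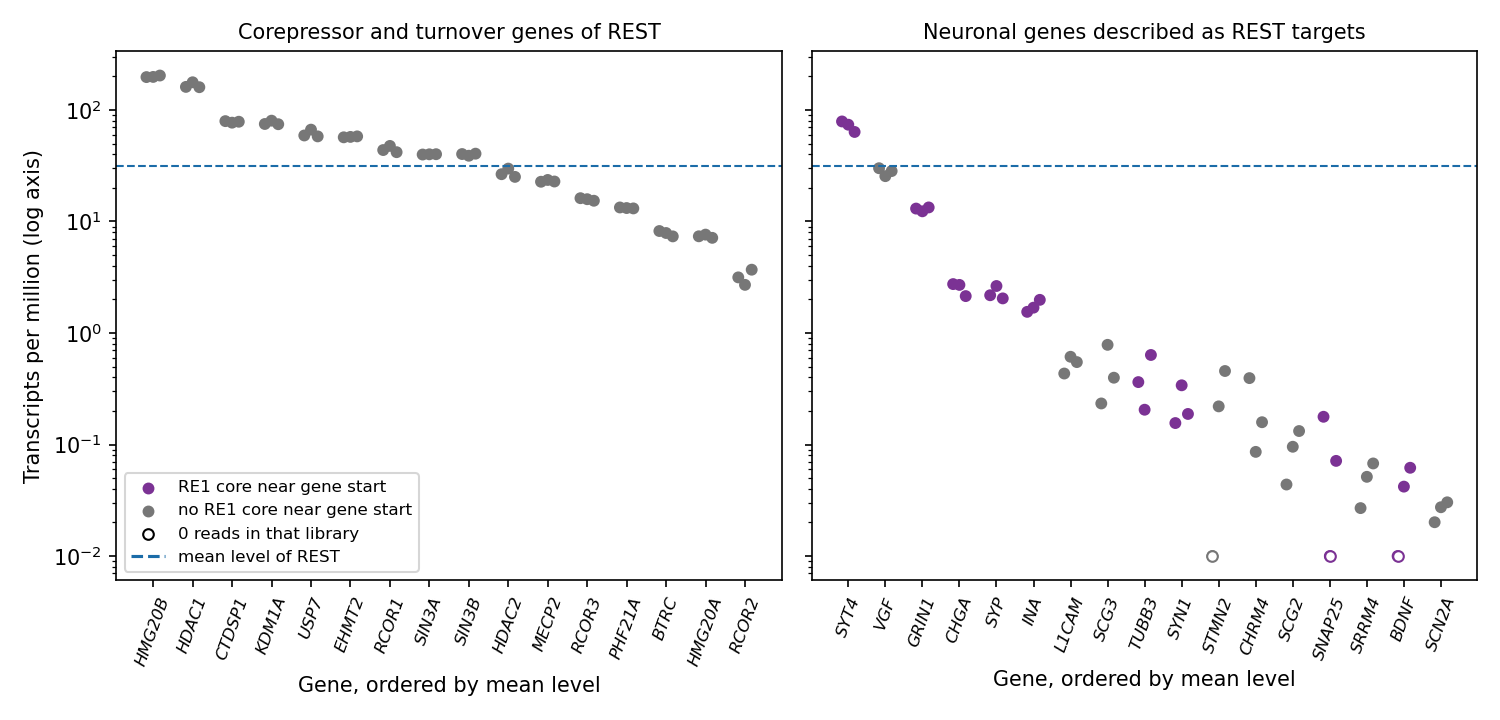
Level in TPM on a log axis of 16 corepressor and turnover genes of REST (left) and 17 neuronal genes described as its targets (right), with 3 points per gene, 1 for each C4-2 library. Filled purple points mark genes with an RE1 core within 10 kb of the gene start, and the dashed line is the mean level of REST, 31.8 TPM, which among the genes on the right SYT4 alone exceeds on average.

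The RE1 element was then read from the genome beside these levels, a step chosen after the levels had been seen. The core of the textbook element, CAGCACC followed by any 2 bases and GGACAG, was searched on both strands of GRCh38 within 10 kb on each side of the start of each protein-coding gene, taken as its outermost annotated exon base. The core was found for 223 of 19708 genes (1.13%), and for CELF3 alone among the 10 genes. Of the CELF paralogs, CELF6, whose count is not usable because of its shared exon bases, holds a core 321 bases downstream of its start. No match says only that these exact letters are not in the window. Of the 17 genes described as targets, 9 held the core: BDNF, CHGA, GRIN1, INA, SNAP25, SYN1, SYP, SYT4 and TUBB3. The sites of CELF3 and of 5 of these genes, chosen to span high and low levels, are given 5′ to 3′ on the strand of the element, with the matched letters of the core in capitals.
CELF3 (chr1:151717100-151717120, minus strand): tcCAGCACCggGGACAGctcc
SYT4 (chr18:43277293-43277313, minus strand): ttCAGCACCtcGGACAGaaca
GRIN1 (chr9:137139260-137139280, plus strand): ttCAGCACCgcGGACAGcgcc
CHGA (chr14:92923523-92923543, plus strand): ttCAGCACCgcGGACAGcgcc
SYN1 (chrX:47620070-47620090, minus strand): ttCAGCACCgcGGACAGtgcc
SNAP25 (chr20:10219672-10219692, plus strand): ttCAGCACCggGGACAGcggt

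Genes with an RE1 core near the start differed in level, among them a pair with the same 21 bases. GRIN1 and CHGA carry identical 21-base sites, 879 and 452 bases downstream of the gene start, and had 12.9 ± 0.526 and 2.53 ± 0.336 TPM. SYN1, whose site lies 138 bases upstream, had 0.228 ± 0.0982 TPM, and SNAP25, with a site 851 bases downstream, had 0.0829 TPM with 0 reads in replicate 2. SYT4 reached 72.1 ± 7.83 TPM with a site 346 bases downstream.

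For CELF3 the core sits 297 bases upstream of the gene start. The 300 bases that run from this site to 7 bases before the start, on the minus strand (chr1:151716821-151717120), are shown because they place the element beside the start of the one of the 10 genes that holds it, with the core in capitals.
CELF3 upstream: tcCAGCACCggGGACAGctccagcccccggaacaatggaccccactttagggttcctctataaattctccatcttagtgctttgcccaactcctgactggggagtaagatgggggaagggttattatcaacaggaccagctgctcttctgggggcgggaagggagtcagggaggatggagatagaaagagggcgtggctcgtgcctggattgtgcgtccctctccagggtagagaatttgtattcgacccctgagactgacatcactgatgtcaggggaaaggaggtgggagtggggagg

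SRRM4, which is also described as a REST target, held no core in its window. Its RefSeq promoter (GRCh38.p14, chr12:118981291-118981590, plus strand) runs from 250 bases before to 50 after the start. It is shown because SRRM4, the antagonist of REST, was close to absent. Capitals mark matches on either strand to the left part of the element, CAGCACC, and to the GC box, GGGCGG, which do not overlap here.
SRRM4 promoter: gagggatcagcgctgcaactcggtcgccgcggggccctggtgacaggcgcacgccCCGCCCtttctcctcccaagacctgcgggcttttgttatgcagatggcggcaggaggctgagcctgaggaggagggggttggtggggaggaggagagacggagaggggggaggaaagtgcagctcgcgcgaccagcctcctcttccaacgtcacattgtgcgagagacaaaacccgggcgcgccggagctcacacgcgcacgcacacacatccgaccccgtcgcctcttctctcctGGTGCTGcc
The promoter held 1 match to each of these motifs and none to the right part, GGACAG. Of 35116 RefSeq promoters of this length, 7.75% hold CAGCACC, 45.0% hold GGGCGG and 20.5% hold GGACAG, so such short matches are common. The SRRM4 promoter has 66.7% G and C and 26 CpG steps, and the medians over all promoters are 58.7% and 14. Promoters of 6 of the 10 genes were matched in the table, with several for REST, NOVA1 and PTBP1, and those of ESRP1, ESRP2, RBFOX2 and ELAVL3 were not used here.

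Across the genome, genes with an RE1 core near their start lay lower in C4-2 cells than other genes. The 223 genes had a median of 0.343 TPM, and 89 of them (39.9%) reached 1 TPM. The 19485 genes without the core had a median of 5.60 TPM, and 63.0% reached 1 TPM. By library the medians were 0.407, 0.309 and 0.336 TPM with the core and 5.58, 5.71 and 5.40 TPM without it. Within 2 kb of the start the core was found for 97 genes (0.492%), with a median of 0.183 TPM. These values are a description, with no test.

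**Figure D4:**
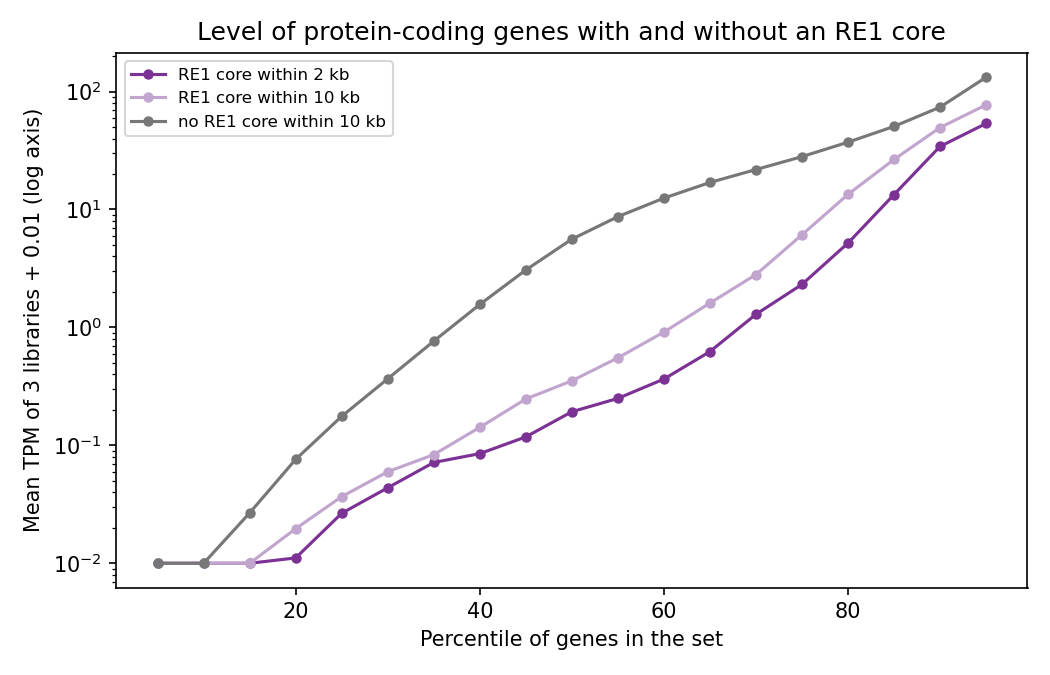
Mean TPM plus 0.01 on a log axis at percentiles of 3 sets of protein-coding genes: 97 with an RE1 core within 2 kb of the gene start, 223 with one within 10 kb, and 19485 with none within 10 kb. At the middle of each set the values are 0.183, 0.343 and 5.60 TPM, and the curves come closer at the top.

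The 8 detected genes had a median coefficient of variation of 4.17% in TPM between libraries, against 9.20% for all 21039 detected genes and 5.64% for the 12344 detected protein-coding genes at 1 TPM or more. A chi-square test of each gene's 3 counts against library sizes scaled by TMM (Benjamini-Hochberg adjusted over all 21039 genes) called 4 of the 8 as varying beyond counting noise, near the 46.1% called among all genes. With the statistic divided by 2, for mates counted as separate reads, PTBP1 was the only one called, against 17.6% of all genes.

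PTBP1 had an adjusted p of 2.12e-24, and of 1.59e-11 with the statistic divided by 2. Its spread from its lowest library to its highest was 9.55% in CPM + 0.5, while in TPM it ran only from 253 to 263. PTBP2 spread more on that scale, 17.2%, but had 2438 reads in all against 86996 for PTBP1. CELF3, with 74 reads in all, ran from 0.424 to 0.583 CPM, a level at which the added 0.5 shrinks the spread. In TPM the coefficient of variation of PTBP1 was 2.06%, below the 4.17% median of the 8 genes. PTBP1 was lowest in replicate 2 at 558 CPM and highest in replicate 3 at 611 CPM. ESRP2 and PTBP2 were likewise lowest in replicate 2, with adjusted p of 0.00124 and 0.0118 in the same test. REST went the other way, highest in replicate 2 at 87.4 CPM and lowest in replicate 3 at 80.5 CPM (adjusted p = 0.00175). With the statistic divided by 2 the adjusted p of ESRP2, PTBP2 and REST were 0.0767, 0.189 and 0.0880. The call of REST was also lost without replicate 2 (adjusted p = 0.641), that of ESRP2 without replicate 3 (0.282), and that of PTBP2 without replicate 1 (0.0580) or replicate 2 (0.546). In CPM, RBFOX2 had the smallest spread of the 8 from its lowest library to its highest, 1.01% (adjusted p = 0.902), while ESRP1, NOVA1 and CELF3 had adjusted p of 0.112, 0.208 and 0.616. By the coefficient of variation in TPM, ESRP2 was lowest at 1.23%, and RBFOX2 had 2.95%. Replicate 2 was the highest library for 4 of the 8 genes and the lowest for the other 4, as it was for 35.1% and 35.3% of all detected genes.

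**Figure D5:**
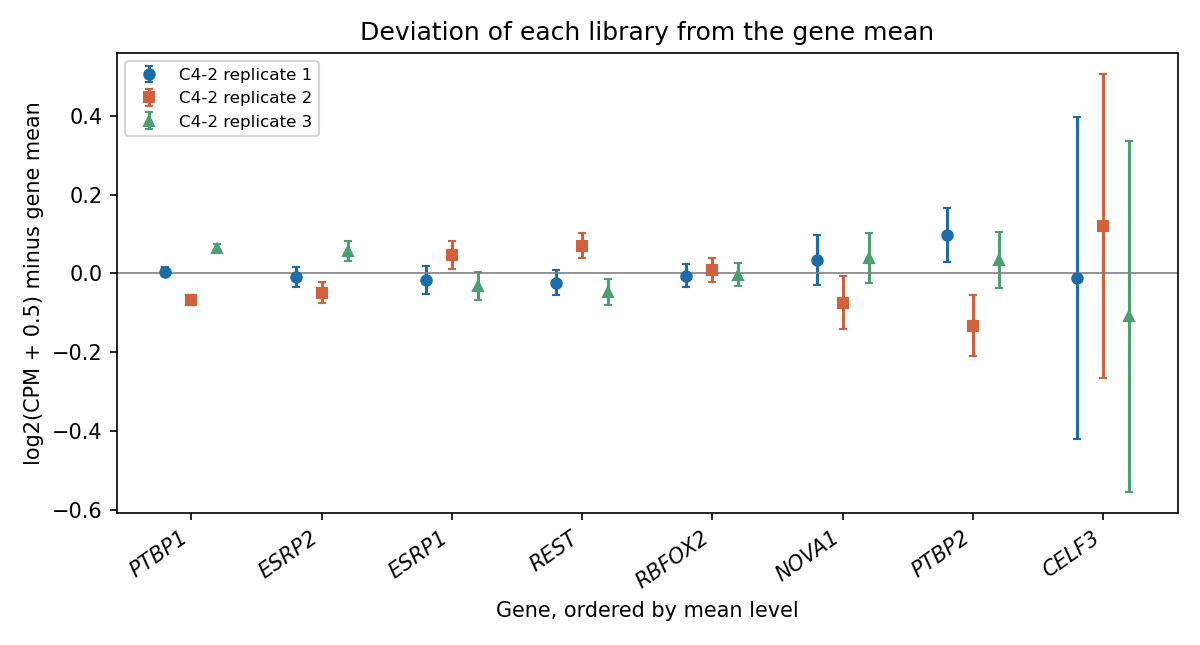
Deviation of each C4-2 library from the gene's mean, in log2(CPM + 0.5), for the 8 detected genes, with bars of 1 standard error from counting when 2 reads make 1 fragment. Replicate 2 lies below the others for PTBP1, ESRP2, NOVA1 and PTBP2 and above them for ESRP1, REST, RBFOX2 and CELF3. The bars leave out the added 0.5, so at CELF3, with a mean of 0.499 CPM, bars and points are on unlike scales and cannot be compared.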

How the data were processed

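RNA was extracted with Trizol, depleted of ribosomal RNA and made into strand-specific NEBNext libraries from 770 ng, per the labels' protocols. Per the submitters' processing notes, the tools were STAR 2.7.0f, Subread 1.6.3, FastQC, Trim Galore and DESeq2 1.26.0, and the build GRCh38. The deposited values are raw, unscaled counts that featureCounts 1.6.3 made for each gene of Ensembl release 90, per the file headers. The recorded options leave the defaults, so strand was ignored and reads that map to several places or to exons of several genes were dropped. Symbols came from GENCODE release 44 (57532 of 58302 identifiers, 98.7%).

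TPM was computed over all genes from the file's exon lengths, and log2 values used a pseudocount of 0.1. Effective library sizes were TMM sizes from edgeR 4.0.16 in R 4.3.3, and 1 group gives no contrast for a quasi-likelihood test. Differences between genes were tested by exact sign flips over 3 libraries, and variation by the chi-square test. The variation test was run on simulated data for these 21039 genes, with mates counted as separate reads and 200 genes of at least 100 reads changed in 1 library. As written it called 5.89% of unchanged genes in the 1.5-fold run. With the statistic divided by 2 it called 0.0336% of them, and it found 87.5% of the 1.5-fold and 99.5% of the 2-fold changes. The simulated counts held counting noise alone, with every fragment counted as 2 reads. These rates therefore need not hold for the libraries themselves. Other steps used Python 3.11.15, numpy 2.4.6, pandas 2.3.3, scipy 1.17.1 and matplotlib 3.10.9.

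The genes, lists and differences were chosen with earlier results of these data known. All 10 genes are named, every gene of lists of up to 6, and of longer lists the 3 highest and those not detected; other genes named from longer lists were chosen after their values were seen. With 1 condition, no gene was sought for a like pattern. Alternatives covered pseudocount, length, scaling, size factors, count filter and each replicate left out.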

Additional observations from a re-analysis of the deposited data

How the results depend on the processing

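No paired analysis was possible because all 3 libraries form 1 group. The differences between genes kept their sign under pseudocounts of 1 and 0.01, exon length without shared bases, longest transcript as length, scaling over protein-coding nuclear genes and each replicate left out. Differences that involve genes under 1 TPM changed in size with the pseudocount: with 1 and 0.01, REST minus SRRM4 was 4.96 and 9.14, ELAVL1 minus ELAVL3 6.43 and 10.5, RBFOX2 minus RBFOX1 4.89 and 11.5, CELF1 minus CELF3 6.12 and 8.05, NOVA1 minus NOVA2 2.23 and 3.52, and the 2 epithelial minus the 5 neural genes 4.60 and 6.73. Without length, ESRP1 minus RBFOX2 turned to −0.51 and the other 9 kept their sign. The number of genes at 1 TPM or more among the 10 stayed at 7 in each of these settings given in TPM. The levels themselves moved: scaled over protein-coding nuclear genes, each of the 10 was higher by over 1.5 times, with PTBP1 at 393, ESRP2 at 101, REST at 48.2 and CELF3 at 0.520 TPM. With the longest transcript as length, CELF3 was at 0.220 TPM. The count of all genes varying between libraries, 9694, was 3699 with the statistic divided by 2, and 5189 to 7108 with 1 replicate left out. Of the 8 detected genes among the 10, the 4 called became 1 with the statistic divided by 2. The number called was 2 to 3 with 1 replicate left out, where fewer libraries enter the test. DESeq2 size factors, library totals and other count filters moved neither count by over 1.5 times, and ESRP1 was called as well under library totals (adjusted p = 0.0187). Depth limits CELF3, ELAVL3 and SRRM4, whose counts are 28 reads or fewer per library.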
